A study of Mus musculus with 20 samples.

Results

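The genes described here are 7 regulators of the circadian clock: Nr1d1 and Nr1d2, which encode the REV-ERB receptors, Rora, which encodes the receptor ROR alpha, the activators Arntl, Clock and Npas2, and the repressor Nfil3. They are listed by name, without a threshold on a measured value, but were picked with earlier results of these data known, so counts among them are descriptions. All 7 passed the filter on low counts, among 26830 annotated genes with at least 1 count in the 20 livers. Messenger RNA was sequenced from the right liver lobe of male fetuses at embryonic day 18.5, in the outbred CD-1 IGS mouse strain. The MNR group held 10 fetuses of dams under maternal nutrient restriction, and the control group held 10 fetuses of dams labelled as control. Each group consisted of 5 litters, A to E, with 2 littermates each, and a litter letter shared by both groups stands for different dams. The labels used here state neither the extent and timing of the restriction nor the time of day of collection.

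In the mammalian clock, BMAL1 (the product of Arntl) pairs with CLOCK or its paralog NPAS2 and activates genes through E-box sequences, among them Nr1d1 and Nr1d2. The REV-ERB proteins are heme-binding nuclear receptors that repress Arntl, Clock, Npas2 and Nfil3 by occupying DNA elements that the ROR receptors use to activate the same genes. In adult liver this loop cycles daily and is coupled to feeding, glucose output and lipid synthesis.

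The total count was 16703824 to 28016953 in MNR fetuses and 14925778 to 27848100 in control fetuses. Because littermates share a dam, their counts were summed and 5 MNR litters were compared with 5 control litters. Values are CPM (counts divided by the effective library size) scaled by the trimmed mean of M-values, given as mean ± SD over 5 litters unless stated otherwise, and changes are given as the log2 ratio of MNR to control with its standard error (SE). Calls rest on an adjusted p under 0.05 in edgeR's quasi-likelihood test over 17573 genes. The labelled tissue fitted its markers, since Alb, the serum albumin, stood at 85201 ± 6434 CPM in MNR and 86695 ± 5483 CPM in control litters, while the 10 erythroid markers summed to 22826 to 30634 CPM in MNR and 22124 to 34951 CPM in control litters. Of 58 markers of 8 cell types, 55 were tested, and the summed levels of the groups overlapped for each cell type. Of these 55 markers 0 were called in edgeR, against 0.666% of all genes. Of the same 55, 14 had an unadjusted edgeR p under 0.05, against 19.6% of all genes. The 8 neutrophil markers summed to 2444 to 3554 CPM in MNR and 2228 to 2577 CPM in control litters, with a positive log2 fold change for all 8. The 5 megakaryocyte markers summed to 219.9 to 258.9 CPM in MNR and 201.1 to 249.96 CPM in control litters, with a positive log2 fold change for all 5. The 6 stellate cell markers summed to 310 to 357 CPM in MNR and 319 to 394 CPM in control litters, with a negative log2 fold change for all 6. Beside the 19.6% of all genes, an unadjusted edgeR p under 0.05 was found for 5 neutrophil, 4 megakaryocyte and 3 stellate cell markers. The part of these cell types in the results below was not tested. In 3 fetuses, MNR B_1, MNR E_1 and control B_1, markers of the exocrine pancreas summed to 153, 109 and 381 CPM (on library totals), and to 4.02 to 42.3 CPM in the other 17. Without these 3 fetuses the log2 fold change of Nr1d1 was 2.55 and that of Nr1d2 1.32 (edgeR adjusted p = 0.0026 and 0.0133).

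The promoters of the genes are shown because REV-ERB and ROR proteins, and CLOCK with BMAL1, act on their target genes through short DNA elements. RefSeq start sites on build GRCm38.p6 were matched for all 7 genes, at 10 start sites, each with 250 bases before and 50 bases after the start. Both strands were searched for the ROR and REV-ERB response element (RORE, an A/T-rich stretch that runs into a half-site), the nuclear receptor half-site (AGGTCA, which can lie within that element), the E-box (CACGTG), a variant E-box (CACGTT) and the D-box (TTANNTAA), to which NFIL3 and the PAR bZIP factors bind. The 4 sequences below run 5′ to 3′ on the strand of the gene, with the matched bases in capitals. They lie at chr11:98775328-98775627 (minus strand) for Nr1d1, chr14:18239057-18239356 (minus strand) for Nr1d2, chr7:113207261-113207560 (plus strand) for Arntl and chr13:52980990-52981289 (minus strand) for Nfil3.
Nr1d1: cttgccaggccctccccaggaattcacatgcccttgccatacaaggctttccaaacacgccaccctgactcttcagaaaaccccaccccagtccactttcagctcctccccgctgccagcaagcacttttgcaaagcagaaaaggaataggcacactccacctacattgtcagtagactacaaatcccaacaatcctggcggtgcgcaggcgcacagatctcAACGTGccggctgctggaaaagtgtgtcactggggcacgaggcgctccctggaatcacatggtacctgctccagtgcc
Nr1d2: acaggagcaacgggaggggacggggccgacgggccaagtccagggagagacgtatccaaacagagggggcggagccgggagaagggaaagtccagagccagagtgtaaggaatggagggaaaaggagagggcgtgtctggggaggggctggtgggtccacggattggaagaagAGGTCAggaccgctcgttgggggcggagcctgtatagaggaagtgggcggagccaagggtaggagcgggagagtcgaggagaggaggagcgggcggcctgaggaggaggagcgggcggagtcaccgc
Arntl: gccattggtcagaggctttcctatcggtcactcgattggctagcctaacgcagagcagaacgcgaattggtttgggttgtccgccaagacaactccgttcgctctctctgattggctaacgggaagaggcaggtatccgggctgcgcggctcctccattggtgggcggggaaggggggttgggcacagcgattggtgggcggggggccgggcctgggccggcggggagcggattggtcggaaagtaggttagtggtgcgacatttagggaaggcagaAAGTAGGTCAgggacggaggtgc
Nfil3: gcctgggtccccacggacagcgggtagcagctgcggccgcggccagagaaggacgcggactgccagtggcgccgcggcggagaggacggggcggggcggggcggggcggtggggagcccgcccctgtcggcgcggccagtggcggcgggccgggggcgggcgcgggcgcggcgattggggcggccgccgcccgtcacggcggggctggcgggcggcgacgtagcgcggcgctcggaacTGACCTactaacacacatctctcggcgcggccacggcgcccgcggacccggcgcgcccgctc

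The ROR and REV-ERB element was searched as a fixed pattern, so variants outside that pattern were not counted. The pattern was matched once, in Arntl, as AAGTAGGTCA at bases 28 to 37 after the start site. The Arntl window shown also holds a stretch that differs from this match only in its next-to-last base. That stretch also lies in the other Arntl window and was not counted as a match. Among 32851 mouse promoters of the same length 0.606% held a match to the pattern. Nr1d2 held a half-site at -77 to -72, a motif found in 16.3% of promoters. Nfil3 held a half-site on the opposite strand at -12 to -7, and Clock held one at -119 to -114 of a start site not shown. Nr1d1 held the variant E-box on the opposite strand at -28 to -23, a match found in 4.68% of promoters. No window of the 7 genes held the E-box, which 7.15% of promoters held, or the D-box, which 6% held. The windows of Rora and Npas2 and the other windows of Arntl and Clock held 0 matches. These letters describe the windows alone and show no binding.

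The REV-ERB genes Nr1d1 and Nr1d2 rose in MNR livers, and Rora, Arntl, Clock, Npas2 and Nfil3 did not pass the test. Thus 2 of the 7 genes were called, both of them higher in MNR, while 0.666% of all 17573 genes were called in either direction, 0.415% as higher and 0.25% as lower. An unadjusted edgeR p under 0.05 was found for 6 of the 7 genes, against 19.6% of all genes, and 2 of these 6 were lower in MNR, against 9.69% of all genes. The median log2 fold change was 0.27 over the 7 genes and -0.0027 over all genes tested, and 5 of the 7 values were positive. In whole liver RNA, a change in the number of cells that express a gene and a change in RNA per cell cannot be told apart.

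**Figure D1:**
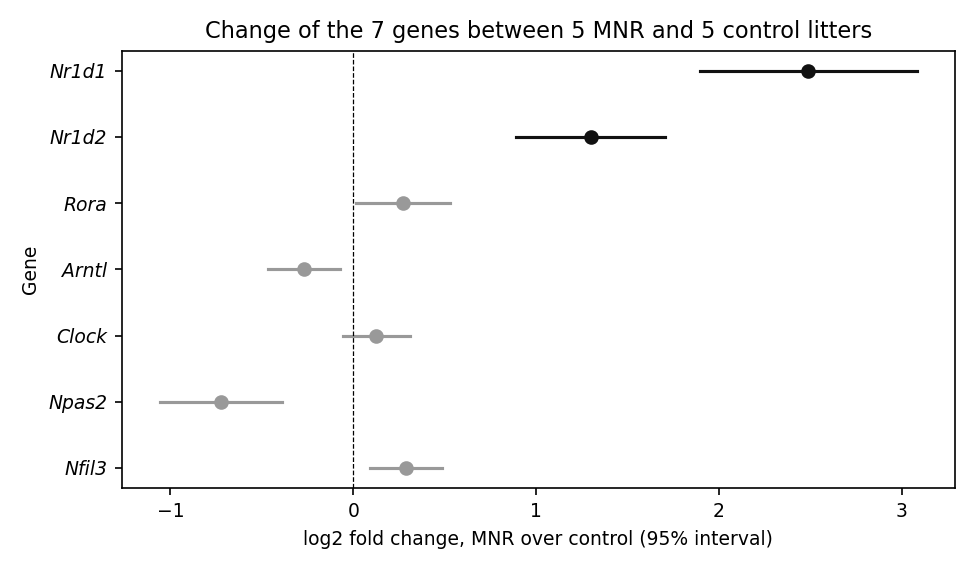
Log2 fold change of MNR over control for the 7 genes (points) with its 95% interval (lines), from 5 MNR and 5 control litters, with called genes in black and the others in grey. Nr1d1 at 2.49 and Nr1d2 at 1.30 lie to the right of 0, and the interval of Clock spans 0.

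Nr1d1, on chromosome 11 at 98629246 to 98636647 (mm9, minus strand), encodes REV-ERB alpha. It stood at 9.16, 9.17, 9.39, 4.40 and 6.82 CPM in MNR litters A to E, against 1.41, 2.15, 1.58, 0.774 and 1.07 CPM in control litters A to E. MNR and control litters did not overlap, nor did single fetuses, of which all 10 MNR fetuses lay above all 10 control fetuses. The lowest MNR fetus, D_1, had 2.62 CPM and the highest control fetus, B_1, had 2.54 CPM, so the groups were separated by a narrow gap. The counts behind these values were 73 to 272 per MNR fetus and 18 to 43 per control fetus, the lowest of the 7 genes in control livers. The log2 fold change was 2.49 (SE 0.27, 95% interval 1.90 to 3.08, edgeR adjusted p = 0.018), and Nr1d1 had the smallest p of all genes tested.

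Nr1d2, on chromosome 14 at 19036568 to 19071641 (mm9, minus strand), encodes REV-ERB beta, the paralog of REV-ERB alpha. Its levels were 24.3, 21.4, 22.4, 14.0 and 22.3 CPM in MNR litters A to E, against 8.57, 11.6, 9.62, 5.84 and 6.93 CPM in control litters A to E. Here too the litters were fully separated. Among single fetuses 9 of 10 in MNR lay above all controls, and the exception was D_1 at 11.7 CPM, against 11.9 CPM in control B_1. The log2 fold change was 1.30 (SE 0.19, 95% interval 0.89 to 1.71, edgeR adjusted p = 0.0257). In all, 4.5% of genes had litters that did not overlap, 2.28% with MNR higher and 2.23% with MNR lower. For single fetuses such a share over all genes was not computed. Littermates share a dam, so the counts of single fetuses for Nr1d1, Nr1d2 and Npas2 are descriptions.

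Both calls depended on which litters were included, although the direction and size did not. With each of the 10 litters left out in turn, the log2 fold change of Nr1d1 was 2.33 to 2.69 and its edgeR adjusted p was 0.00189 to 0.0687. The unadjusted edgeR p of Nr1d1 in these 10 fits was 2.5e-07 to 6.4e-06. Nr1d1 was no longer called without MNR litter B (adjusted p = 0.0605), MNR litter E (0.0582), control litter A (0.0687), control litter C (0.0515) or control litter E (0.0509). For Nr1d2 the log2 fold change was 1.19 to 1.44 and the edgeR adjusted p 0.00552 to 0.0792, at an unadjusted edgeR p of 3.7e-06 to 7.7e-05. Nr1d2 was no longer called without MNR litter A (adjusted p = 0.0657), MNR litter B (0.0643), MNR litter E (0.0761), control litter A (0.0792), control litter C (0.0661), control litter D (0.0521) or control litter E (0.0526). With fetus 1 of each litter alone both genes had an edgeR adjusted p = 0.215, at log2 fold changes of 2.36 for Nr1d1 and 1.24 for Nr1d2. In that fit 0 of all genes were called in edgeR and 1699 had an unadjusted p under 0.05.

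**Figure D2:**
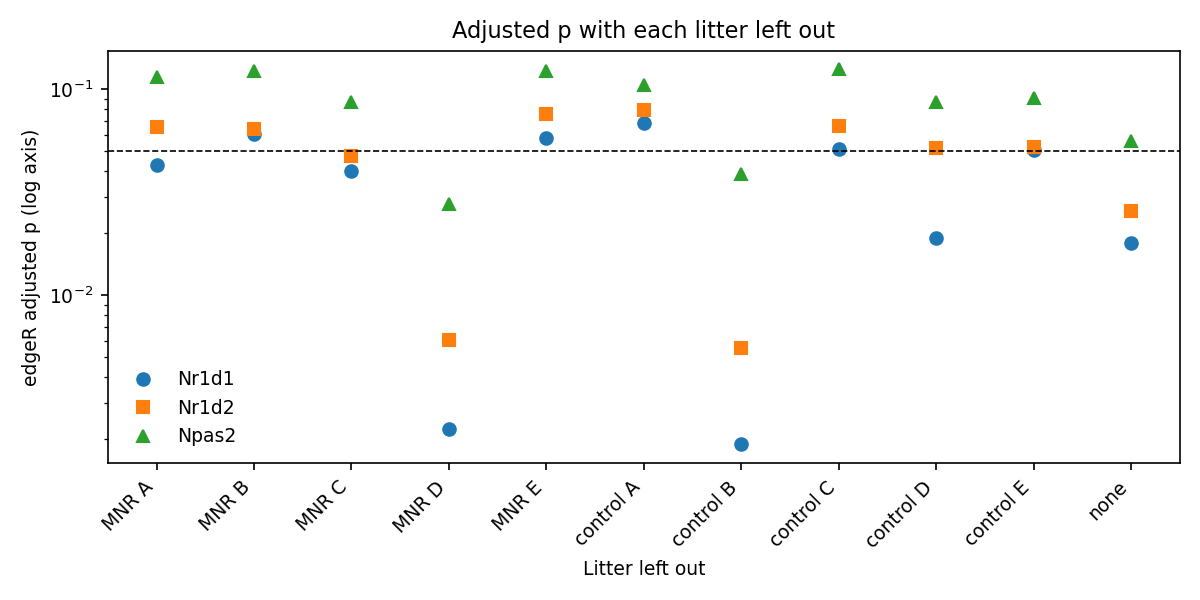
Adjusted p from edgeR (log axis) of Nr1d1, Nr1d2 and Npas2 when the litter on the x axis was left out, with the fit of all 10 litters at the right, and the threshold of 0.05 as a dashed line. The values without MNR litter D or control litter B are the lowest for each of the 3 genes.

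The deposited transcript counts gave the same picture for each annotated transcript of the REV-ERB genes. All 3 transcripts of Nr1d1 and all 3 of Nr1d2 were called as higher in MNR, while 0.575% of 55494 transcripts tested were called in either direction and 0.305% as higher. Nr1d1-001, which held 71.4% of the counts of Nr1d1, rose by 2.47 on the log2 scale (edgeR adjusted p = 0.00494). This transcript shares 263 bases with exons of Thra, a thyroid hormone receptor gene on the opposite strand. Nr1d1-201 and Nr1d1-002 share 0 bases with Thra and rose by 2.57 and 2.37 on the log2 scale (edgeR adjusted p = 0.0111 and 0.0219). Thra itself stood at 29.5 ± 1.26 CPM in MNR and 26.4 ± 1.95 CPM in control litters (log2 fold change 0.16, edgeR adjusted p = 0.164). Nr1d2-001, with 83.8% of the counts of Nr1d2, rose by 1.29 on the log2 scale (edgeR adjusted p = 0.0189), and the other 2 transcripts rose by 1.38 and 1.15. How reads shared by transcripts of a gene were assigned is not stated in the labels. The 3 transcripts of Arntl, of 2865 to 2925 bases, held 34.8%, 32.7% and 32.5% of its counts.

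Npas2 and Arntl, both activators, had negative log2 fold changes that did not pass over all genes. Npas2, the paralog of Clock, lies on chromosome 1 at 39250576 to 39420079 (mm9, plus strand). It stood at 2.28, 1.76, 1.87, 2.57 and 2.11 CPM in MNR litters A to E, against 3.04, 3.73, 4.61, 2.84 and 3.33 CPM in control litters A to E. All MNR litters lay below all control litters, and 7 of 10 MNR fetuses lay below all control fetuses, at 32 to 70 counts per MNR fetus and 37 to 101 per control fetus. The log2 fold change was -0.73 (SE 0.15, 95% interval -1.06 to -0.39, edgeR adjusted p = 0.0564). Under other settings its adjusted p was 0.00152 to 0.339 and its log2 fold change -0.81 to -0.61. It was called in 2 of the 10 edgeR fits that left out a litter, without MNR litter D (adjusted p = 0.0276) and without control litter B (adjusted p = 0.039). It was also called in 6 of the 13 other settings. These were DESeq2 (adjusted p = 0.00152), fetuses as separate libraries in edgeR (0.00162), limma-voom with litters as random effects (0.0137), fetus 2 of each litter in edgeR (0.0322), the erythroid marker level as a covariate in edgeR (0.0392) and upper-quartile scaling in edgeR (0.0462). The fit with fetuses as separate libraries ignores shared dams and called 2301 of all genes. DESeq2 called 1163 and limma-voom 1088, against 117 in the main fit. Its main transcript, Npas2-001, with 95.3% of the counts, was called as lower in the fit over transcripts at -0.76 (edgeR adjusted p = 0.046), where 0.27% of transcripts were called as lower.

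Arntl lies on chromosome 7 at 120350979 to 120457636 (mm9, plus strand). Its levels were 22.9, 22.7, 24.3, 28.4 and 24.4 CPM in MNR litters A to E, against 29.8, 33.3, 31.5, 23.8 and 29.4 CPM in control litters A to E. The groups overlapped through control litter D, the lowest of its group, which lay below MNR litters C, D and E. MNR litter D, the highest of its group, lay below the other control litters. The log2 fold change was -0.27 (SE 0.09, 95% interval -0.47 to -0.07, edgeR adjusted p = 0.139). Clock, which encodes the partner of BMAL1, lies on chromosome 5 at 76639992 to 76733817 (mm9, minus strand). It stood at 25.2, 21.9, 23.2, 25.7 and 27.8 CPM in MNR litters A to E, against 21.5, 24.4, 23.4, 19.4 and 24.8 CPM in control litters A to E. MNR litters A, D and E lay above all control litters, and MNR litters B and C lay within the range of the controls. The log2 fold change of Clock was 0.13 (SE 0.08, 95% interval -0.05 to 0.31, edgeR adjusted p = 0.435).

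Rora and Nfil3 had small positive log2 fold changes that did not pass. Rora, on chromosome 9 at 68501593 to 69236053 (mm9, plus strand), stood at 82.9, 88.9, 77.4, 80.6 and 87.8 CPM in MNR litters A to E, against 58.4, 83.4, 60.9, 57.1 and 85.4 CPM in control litters A to E. Control litters B and E reached the level of the MNR litters and the other control litters lay below all of them. The spread over litters was 5.81% of the mean in MNR and 20.4% in control. The log2 fold change was 0.27 (SE 0.12, 95% interval 0.02 to 0.53, edgeR adjusted p = 0.228). Rora-001, the longest transcript with 10878 bases and 83.6% of the counts, had a log2 fold change of 0.23, and Rora-002 and Rora-201, with 7.26% and 7.17% of the counts, had 0.50 and 0.44 (edgeR adjusted p = 0.0657 and 0.201). Nfil3, a repressor that competes with the PAR bZIP activators for D-boxes, lies on chromosome 13 at 53062578 to 53076442 (mm9, minus strand). It stood at 28.6, 30.6, 23.2, 23.9 and 29.3 CPM in MNR litters A to E, against 19.3, 24.6, 22.0, 22.4 and 22.9 CPM in control litters A to E. MNR litters C and D lay within the range of the controls, and the log2 fold change was 0.29 (SE 0.09, 95% interval 0.09 to 0.48, edgeR adjusted p = 0.12).

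**Figure D3:**
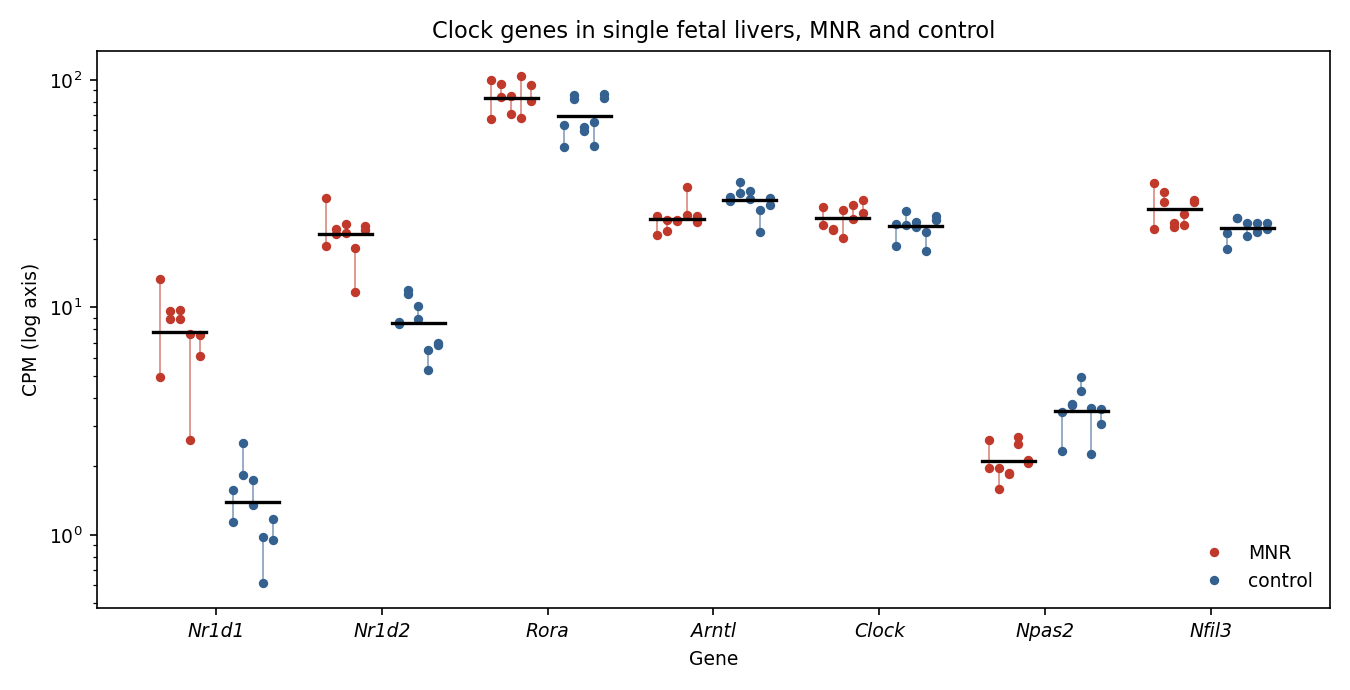
CPM (log axis) of the 7 genes in single fetuses, with MNR in red left of control in blue, littermates joined by a thin line, litters A to E in order, and the mean over 5 litters as a black bar. For Nr1d1 the MNR fetuses lie at 2.62 to 13.4 CPM and the control fetuses at 0.618 to 2.54 CPM, without overlap, while the groups overlap for the other 6 genes.

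Levels of different genes were compared as TPM, which divide counts by transcript length. In MNR litters the order was Rora at 20.9 ± 1.15, Nfil3 at 20.1 ± 2.39, Arntl at 12.8 ± 1.19, Nr1d2 at 10.7 ± 1.97, Nr1d1 at 6.26 ± 1.59, Clock at 5.28 ± 0.395 and Npas2 at 1.11 ± 0.254 TPM. In control litters it was Nfil3 at 16.6 ± 1.10, Rora at 16.1 ± 2.82, Arntl at 15.4 ± 1.78, Clock at 4.56 ± 0.412, Nr1d2 at 4.37 ± 1.08, Npas2 at 1.64 ± 0.278 and Nr1d1 at 1.10 ± 0.433 TPM. Nr1d1 stood between Nr1d2 and Clock in MNR litters and was last in control litters. Neighbours whose litters overlapped were, in MNR, Rora with Nfil3, Arntl with Nr1d2, Nr1d2 with Nr1d1 and Nr1d1 with Clock. In control they were Nfil3, Rora and Arntl with each other, Clock with Nr1d2, and Npas2 with Nr1d1. Averaged over the 20 fetuses, Rora lay above 68.6% of the tested genes in TPM, Nr1d1 above 32.3% and Npas2 above 18.6%.

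Ratios of raw counts within a fetus, which need no scaling of libraries, set the genes against each other. Counts of Nr1d1 over counts of Npas2 had a lowest, median and highest value of 1.04, 4.17 and 5.56 in MNR fetuses, against 0.273, 0.367 and 0.682 in control fetuses. The groups did not overlap, and in both of them D_1 had the lowest ratio. Counts of Nr1d1 over counts of Nr1d2 were 0.223, 0.411 and 0.459 in MNR fetuses, against 0.116, 0.156 and 0.213 in control fetuses, again without overlap. Counts of Nr1d2 over counts of Arntl were 0.461, 0.901 and 1.20 in MNR fetuses, against 0.224, 0.285 and 0.362 in control fetuses. Counts of Npas2 over counts of Arntl were 0.0736, 0.0836 and 0.103 in MNR fetuses, against 0.0765, 0.118 and 0.165 in control fetuses, and here the groups overlapped.

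The correlation between littermates was positive for all 7 genes, but none passed adjustment. After the group mean was removed, Pearson's r between fetus 1 and fetus 2 over 10 litters was 0.71 for Nr1d2 (exact permutation within groups, two-sided, p = 0.0371, adjusted over 7 genes p = 0.26), with a Spearman's rho of 0.53 (exact permutation p = 0.15, adjusted p = 0.35). It was 0.28 to 0.40 for the other 6 genes (exact permutation p = 0.147 to 0.507, adjusted p = 0.347 to 0.507), with a rho of 0.18 to 0.53. The median r over all 17573 genes was 0.30 (quartiles 0.03 and 0.54), so that Nr1d2 lay above the upper quartile and the other 6 genes lay between the quartiles. Without MNR litter A the r of Nr1d2 was 0.87 (exact permutation, adjusted p = 0.0146), and over all alternatives its adjusted p was 0.0146 to 0.584.

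The intraclass correlation, the share of the variance within a group that lies between litters, was 0.63 for Nr1d2, 0.43 for Arntl, 0.41 for Npas2 and 0.20 to 0.27 for the other 4 genes. Nr1d1 varied most between littermates, with an SD within litters of 0.52 on the log2 CPM scale, against 0.15 for Arntl. For Nr1d1 the widest gaps lay in MNR litters D and A. In MNR litter A, Nr1d1 stood at 4.92 CPM in fetus 1 and 13.4 CPM in fetus 2, and in MNR litter D at 2.62 CPM in fetus 1 and 7.63 CPM in fetus 2. In both litters fetus 1 was also the lower one for Nr1d2, Rora, Arntl, Clock, Npas2 and Nfil3. In control litter D fetus 1 was likewise lower for all of these genes and for Nr1d1, at 0.618 CPM against 0.982 CPM. In MNR litter E fetus 2 was the lower one for the same genes, so such shifts were seen in both groups. Fetus D_1 had the highest total count of its group, at 28016953 in MNR and 27848100 in control. The share of all genes lower in these fetuses was not computed, and the part of depth was not tested.

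**Figure D4:**
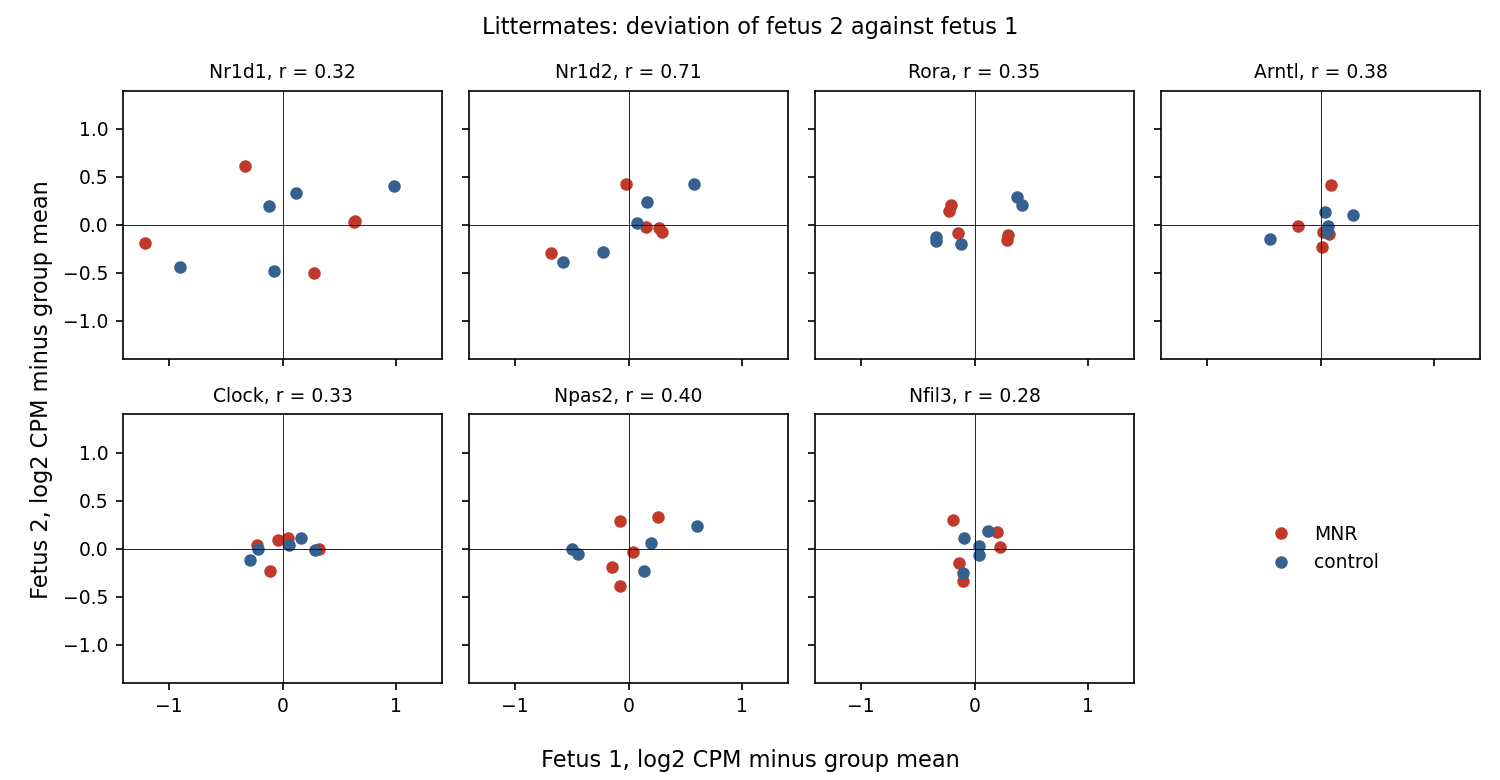
Log2 CPM of fetus 2 against fetus 1 of each litter for the 7 genes, each minus the mean of its group, with 5 MNR litters in red and 5 control litters in blue. Points lie closest to a rising line for Nr1d2 (r = 0.71), while MNR litter D lies far to the left for Nr1d1.

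Among the genes themselves, Nr1d1 and Nr1d2 varied together from litter to litter within groups. Over 10 litters, with the group mean removed, Pearson's r was 0.96 (exact permutation within groups, two-sided, p = 0.00104, adjusted over 21 pairs p = 0.0219) and Spearman's rho was 0.84 (exact permutation p = 0.00549, adjusted p = 0.0583). Control litters had the same order for both genes, from B as the highest through C, A and E to D, and MNR litter D was the lowest of its group for both. Without the 2 litters farthest from the median of Nr1d1, r was 0.87 over 8 litters (exact permutation, adjusted p = 0.419). With single litters left out r was 0.93 to 0.99, and the adjusted exact permutation p was above 0.05 without MNR litter D (0.107) or control litter A (0.0875), B (0.109), C (0.0875), D (0.0547) or E (0.109). The exons of these genes lie on different chromosomes, but both genes share the same libraries and scaling.

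Of the 21 pairs, 19 had a positive r, 3 had an unadjusted exact permutation p under 0.05, and 1 passed adjustment. Against the 17572 other genes, the median r of a member was -0.023 (Nfil3) to 0.020 (Clock). The median absolute r was 0.28 (Npas2) to 0.33 (Nr1d2). The share of all gene pairs at such a permutation p was not computed, so the counts of pairs are descriptions. The 3 activators had an r of 0.71 for Arntl and Npas2 (exact permutation p = 0.0421, adjusted p = 0.27), 0.67 for Arntl and Clock (exact permutation p = 0.0532, adjusted p = 0.27) and 0.65 for Clock and Npas2 (exact permutation p = 0.0642, adjusted p = 0.27). Without the 2 litters farthest from the median of the first gene of a pair, these r were 0.42, 0.38 and 0.36. This removal narrows the range of that gene, so a lower r cannot tell whether the full value rests on those litters. For some other pairs r was higher after it, among them Clock and Nfil3 (0.20 with all litters and 0.81 without these 2). Rora and Nfil3 had an r of 0.59 (exact permutation p = 0.0126, adjusted p = 0.133) and a rho of 0.68. After the same removal their r was 0.80. Nr1d1 and Arntl, a repressor and its known target, had an r of 0.23 within groups (exact permutation p = 0.556, adjusted p = 0.766), with a range of -0.37 to 0.81 over the alternatives. Nr1d1 and Npas2 had an r of 0.07 (exact permutation p = 0.853, adjusted p = 0.9).

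**Figure D5:**
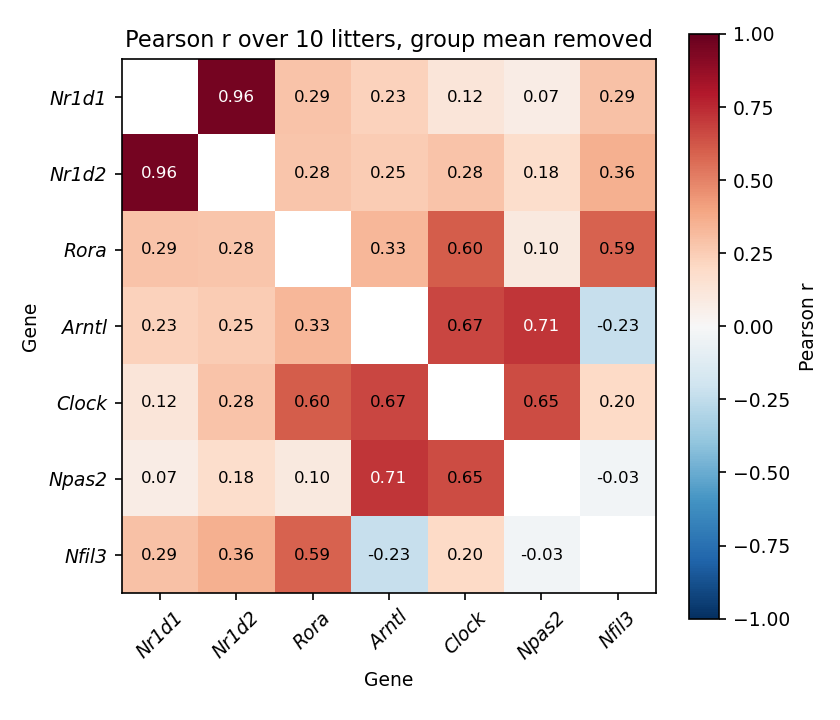
Pearson's r between the 7 genes over 10 litters, from log2 CPM with the mean of each group removed, on a scale from -1 (blue) to 1 (red). The darkest cell is Nr1d1 with Nr1d2 (0.96), and Arntl, Clock and Npas2 form a block at 0.65 to 0.71.

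The genes most like each member were sought over 20 fetuses among 9946 genes with a mean of at least 5 CPM, leaving out predicted gene models, with the group mean removed, and are given as a description. Nr1d2 was the gene most like Nr1d1 (r = 0.92), followed by Oit3 (0.85) and Spna2 (0.84). Grpel2, Timp3 and Oit3 were most like Nr1d2, at 0.90, 0.90 and 0.89. Cyp27a1, which encodes a sterol hydroxylase of bile acid synthesis, was most like Rora (0.90). Zfp113 and Amdhd1 were most like Arntl (0.90 and 0.89), Aff4 was most like Clock (0.84), Plin2, which encodes a lipid droplet protein, was most like Npas2 (0.84), and Klhl9 was most like Nfil3 (0.87). Fetuses of a litter share a dam, and all values share library and depth.

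Other genes of the pathway were counted from lists chosen by function, beside the share of 0.666% called among all genes and their median change of -0.0027. Of 16 other core clock genes 0 were called in edgeR, with a median log2 fold change of 0.08. The 4 with the smallest p were Cry2, Per1 and Per3, which encode repressors of CLOCK and BMAL1, and the kinase gene Csnk1e, at 0.28, 0.32, 0.35 and 0.23 on the log2 scale (edgeR adjusted p = 0.101, 0.112, 0.139 and 0.149). Of these 16 genes, 8 had an unadjusted edgeR p under 0.05, against 19.6% of all genes. Of 13 E-box targets outside the core loop, 1 was called as higher and 0 as lower, with 9 at an unadjusted edgeR p under 0.05, 11 positive values and a median of 0.52. The called gene was Tef, a PAR bZIP factor, at 68.5 ± 9.98 CPM in MNR and 39.4 ± 3.48 CPM in control litters (log2 fold change 0.80, edgeR adjusted p = 0.0257). Pnp, Tsc22d3 and Por did not pass, at -0.31, 0.64 and 0.60 on the log2 scale (edgeR adjusted p = 0.0592, 0.0618 and 0.0618).

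Of 15 tested hepatic targets of REV-ERB outside the 7 genes, 0 were called in edgeR, and the median log2 fold change was -0.04. The log2 fold change was positive for 5 of the 15 targets. Of the 15 targets, 5 reached an unadjusted edgeR p under 0.05, against 19.6% of all genes. Values were -0.45 for Fads1, a fatty acid desaturase, and -0.48 for Avpr1a, a vasopressin receptor (edgeR adjusted p = 0.0572 and 0.0808). Plin2, a lipid droplet gene, was at -0.33 (edgeR adjusted p = 0.137). Among 13 genes of REV-ERB corepressors, heme enzymes and protein turnover, 0 were called in edgeR, with a median of 0.0026. Of these 13 genes, 4 had an unadjusted edgeR p under 0.05, against 19.6% of all genes. Hmox1 and Alas1, which break down and make heme, the ligand of REV-ERB, were at 0.48 and 0.39 on the log2 scale (edgeR adjusted p = 0.0645 and 0.115). Fbxo32 and the corepressor gene Ncor1 were at 0.80 and 0.13 (edgeR adjusted p = 0.08 and 0.231). Of 12 coactivator and cofactor genes 0 were called in edgeR, with a median of 0.16. Of these 12 genes, 6 had an unadjusted edgeR p under 0.05, against the same 19.6% of all genes. Crebbp, Ppargc1a, Ncoa3 and Ep300 were at 0.27, 0.78, 0.22 and 0.17 on the log2 scale (edgeR adjusted p = 0.0731, 0.0904, 0.115 and 0.139).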

How the data were processed

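The authors deposited, for each fetus, raw counts by transcript as whole numbers. The submitters' processing notes name Bowtie2, FastQC, edgeR and DESeq2, with build mm9, without roles. How counting treated strand and reads with several matches was not given in the sources used here. The gene table covering all samples was not used here. Libraries were strand-preserving and made from polyadenylated RNA, per the labels' protocols.

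Counts of a gene's transcripts were added up through GENCODE M1, which annotates that build (NCBIM37). Transcripts without a gene held 0.0788% to 0.154% of counts. Littermates were summed and low genes removed by filterByExpr (minimum count 10). After TMM scaling the test was that of edgeR 4.0.16 (quasi-likelihood, two-sided, Benjamini-Hochberg). Log2 CPM for correlations used a prior count of 2, and permutations within groups were exact over 14400 pairings. Intervals of fold changes use the fitted degrees of freedom. The scripts were tested on simulated data. No pair of fetuses of a group agreed within sampling noise (chi-square per degree of freedom was 9.78 to 79.1 in 90 pairs). The labels do not say that litters were collected separately, so p-values measure the spread between these litters.

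The 7 genes and the gene lists were chosen with earlier results of these data known. Named genes are the 7 members, up to 4 genes of smallest p per list, and the 3 most similar genes per member, of which some are shown. A gene that the rule for lists names is not reported here. Fetuses were set apart for pancreas transcripts above 5 times the median, a limit chosen after seeing the values.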

Additional observations from a re-analysis of the deposited data

Results flagged for a closer look

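Among 28 groups of litters or fetuses examined for a value far from the others, 2 were flagged, where chance flags about 1 in 20 groups. For Nr1d2, MNR litter D at 14.0 CPM lay far below the next MNR litter at 21.4 CPM (gap 0.717 of the range). For Arntl, fetus D_2 of the MNR group at 33.8 CPM lay far above the next MNR fetus at 25.4 CPM (gap 0.647 of the range). Both come from the same litter, in which Nr1d1 also had its lowest MNR level of 4.40 CPM.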

How the results depend on the processing

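All 7 genes kept the sign of their log2 fold change in 23 alternatives. Nr1d1 and Nr1d2 were called in 12 of 13 alternatives that kept all litters, the exception being fetus 1 of each litter alone, with 0 of the 7 genes and 0 of all genes called in edgeR (1699 at an unadjusted p under 0.05). With fetuses as separate libraries, which ignores shared dams, 5 of the 7 genes and 2301 genes were called. The count of all genes called, 117 in the report, was 1088 in limma-voom with litters as random effects, 499 with fetus 2 of each litter, 1163 in DESeq2, 215 without the 3 fetuses with pancreas transcripts, and 178 with upper-quartile scaling, which called 68 as higher and 110 as lower, against 73 higher and 44 lower in the report. With single litters left out, 0 to 3 of the 7 genes and 0 to 843 genes were called in edgeR, at 2818 to 4139 unadjusted p under 0.05. The causes were not tested. With the litter letter as a replicate block 232 genes were called, and 2 of the 7. Litters with the same letter correlated at -0.0093 to 0.184, and 2 of 5 MNR litters were closest to the control litter of their letter. With 5 letters these values cannot decide whether litters of the same letter were handled together, which was not tested. Depth limits Nr1d1 and Npas2 most, at 18 to 43 counts of Nr1d1 per control fetus and 32 to 70 counts of Npas2 per MNR fetus.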
